A study of Macaca fascicularis with 2 samples.

Results

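C1Q-positive macrophages are the cells of the monkey testis that carry RNA of C1QA, C1QB and C1QC, the chains of the complement recognition molecule C1q, together with macrophage receptor genes. Their barcodes were chosen by a rule on measured values: at least 500 detected genes, at least 10 C1Q unique molecular identifiers (UMIs, counted RNA molecules) per 10,000, and a UMI for at least 3 of 7 macrophage genes (CD163, CD68, CSF1R, CD14, TYROBP, FCER1G and AIF1). Barcodes with 20 or more UMIs per 10,000 of the neutrophil and monocyte genes S100A8 and S100A9, or with 30 or more of the stromal gene DCN, were left out. The rule found 711 members among 27353 barcodes with at least 500 genes.

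The study took testes of cynomolgus monkeys (Macaca fascicularis) in which 1 testis had been placed in the abdomen by surgery, a model of cryptorchidism. The unilateral abdominal testis (UAT) gave 1 library, and the contralateral scrotal testis (CST), the side left in the scrotum, gave 1. Both were dissociated with enzymes and sequenced with 10x Genomics 3' chemistry. The CST library is therefore not one from an animal without surgery. Whether the libraries come from the same animal is not stated, and the number of animals, their ages and the time after surgery are not given in the sources used here. With 1 library for each position there is no replicate and no test: the intervals below cover counting error only, and a difference between the libraries cannot be told apart from a difference between animals, digestions or runs.

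Resident macrophages of the testis lie in the interstitium beside Leydig cells and around the tubules, where they clear debris, present antigen on MHC class II and depend on signals through the receptor CSF1R. C1q made by macrophages tags dying cells for uptake, and the scavenger receptors CD163 and MRC1 take up haemoglobin complexes and glycoproteins. Secreted and membrane proteins fold in the endoplasmic reticulum (ER), and a load of unfolded protein there switches on chaperone genes such as HSPA5 (BiP) through the sensors IRE1, PERK and ATF6.

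The UAT library held 12564 barcodes with a median of 7193.5 UMIs and the CST library 15952 with a median of 5438.5, of which 12352 and 15001 had at least 500 genes. The members numbered 614 in UAT and 97 in CST. Their summed depth was 4517675 and 546732 UMIs, with a median of 5789 (727 to 44104) and 3872 (1074 to 61375) UMIs per cell. Mitochondrial RNA made up 4.64% of member UMIs in UAT and 3.36% in CST. The libraries shared 50 barcode sequences.

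The cells matched their label in the selection genes, which are given as a description only because they chose the cells. The C1Q total had a median of 85.3 per 10,000 UMIs in UAT members (10.6 to 346) and 59.3 in CST members (11.1 to 257). Just outside the threshold, the highest values were 9.78 and 9.98, and 10 UAT and 8 CST members lay under 15. Of the 7 macrophage genes, 363 of the 614 UAT members and 30 of the 97 CST members had a UMI for all 7. CSF1R, the receptor for the macrophage growth factors CSF1 and IL34, was seen in 604 and 91 members, and CD163 in 591 and 80. All levels below are in CPM, the UMIs of a gene summed over the members of a library and scaled to a common total, and where a pair of values is given the UAT value comes first. C1QA stood at 2562 in UAT and 1449 in CST members. Stromal barcodes (DCN of at least 30 per 10,000) held 3.04 and 0.653. Endothelial barcodes (at least 3 endothelial markers with a UMI) held 2.72 and 0.18. Both sets were also limited to C1Q under 10 per 10,000, so their low C1QA was fixed by that choice.

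The CST members carried germ-cell RNA, and likely doublets held a larger part of their UMIs, which bears on every comparison that follows. Droplets that resemble simulated pairs of cells numbered 44 of 614 in UAT (7.17%) and 11 of 97 in CST (11.3%). The number scored was set by library size, at 9.88% of UAT and 12% of CST barcodes with at least 500 genes. Both member shares lay below these. In CST these 11 held 38.1% of all member UMIs and the 5 deepest members 31.2%, while in UAT the 44 held 14.4% and the 5 deepest 4.55%. The 11 had a median C1Q total of 17.1 per 10,000, against 66.85 for the other 86. Spermatocyte and spermatid marker RNA made up 1.85% of CST member UMIs, 0.538% without the 11, and 10.6% of the UMIs of all CST barcodes. PRM1, a protamine that packs sperm DNA, was seen after thinning to 1000 UMIs in 82.5% of CST macrophages and 77.2% of CST stromal barcodes, and in 0.165% of UAT macrophages. Counts over gene lists, and the ratios of most named genes, are therefore given for all members and again for the 570 UAT and 86 CST members that were not scored as doublets.

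**Figure D1:**
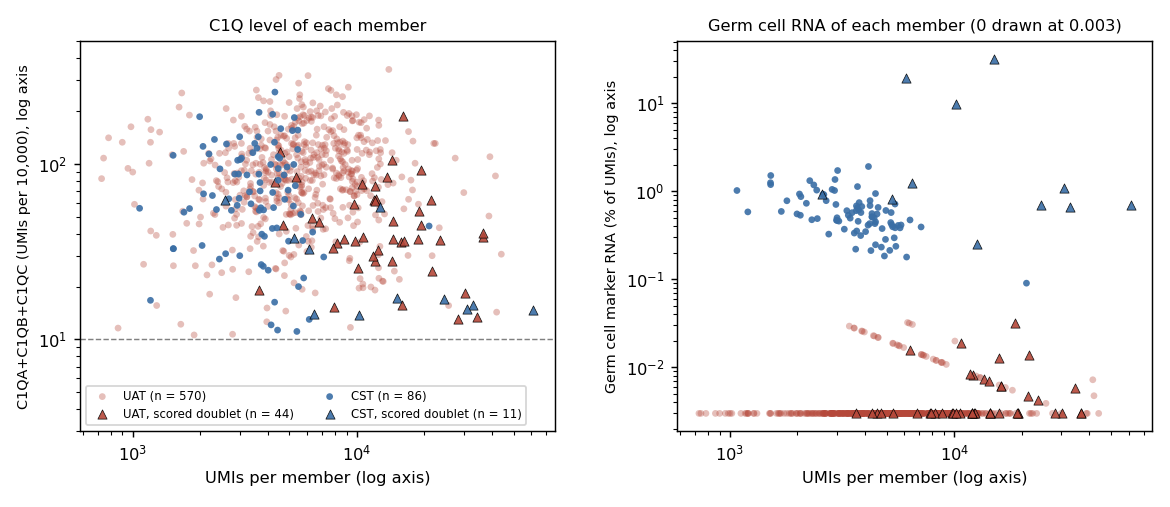
Each point is 1 member, with its UMIs on the x axis (log scale), its C1Q total per 10,000 UMIs on the left y axis and its percent of germ-cell marker UMIs on the right (both log scales, with 0 drawn at 0.003). Triangles are members scored as doublets and the dashed line is the C1Q threshold of 10. CST members lie above most UAT members in germ-cell RNA, and the CST doublets lie low in C1Q, with a median of 17.1 per 10,000.

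Markers of other somatic cell types were low in both libraries, with monocyte genes as the exception. The 15 monocyte markers summed to 11673 CPM in UAT members and 7881 in CST members, mostly LYZ (8803 and 6244), a lysozyme that macrophages also make, and S100A12 was at 0 in both. Stromal markers summed to 484 and 112 CPM (307 and 62 without scored doublets), endothelial markers to 343 and 172 (223 and 248), Leydig cell markers to 178 and 29.3 (70 and 14.8), mural markers to 322 and 304 (75.5 and 23.6) and Sertoli markers to 249 and 23.8 (71.3 and 23.6). The 18 dendritic cell markers were higher in CST, at 418 and 880 CPM (431 and 1317 without scored doublets), led there by the chemokine CCL17; XCR1, CLEC4C and CCR7 were at 0 in both. Per cell they ran from 0 to 4608 CPM in UAT and from 0 to 39973 in CST, with medians of 351 and 367. T and NK cell markers stood at 63.1 and 23.8 CPM, B and plasma cell markers at 42.5 and 14.6, and mast cell markers at 40.1 and 21.9. The part of these RNAs in the results below was not tested.

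C1Q-positive macrophages were 4.97% of UAT barcodes (614 of 12352, exact binomial interval 4.59 to 5.37) and 0.647% of CST barcodes (97 of 15001, 0.525 to 0.788). Only 378 CST barcodes had fewer than 5 germ-cell markers with a UMI, so the members were also set against other somatic barcodes. For each 100 endothelial barcodes there were 37 macrophages in UAT and 18.4 in CST, and for each 100 stromal barcodes 8.89 and 4.15. All 3 ratios were higher in UAT. The barcodes high in S100A8 and S100A9, a separate myeloid set, numbered 50 in UAT and 7 in CST.

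Across 3496 genes with a mean of at least 50 CPM over both libraries, 771 (22.1%) were at least 1.5-fold higher in UAT members and 822 (23.5%) at least 1.5-fold lower. Ratios for this rule were taken after adding 10 CPM to each side, and the median gene stood at 0.14 on the log2 scale. Without scored doublets the counts were 307 (9.6%) and 280 (8.76%) of 3198 genes, with a median of 0.02. Scaling by the median ratio over genes gave 323 higher and 977 lower, with an all-gene median of −0.12. Each group below is read against both pairs of background shares.

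Genes with a symbol were ranked by the bound of the ratio nearest 1, after 4 limits on the library where the gene stood higher: a level of 100 CPM or more, 30 or more UMIs, 25% or more of the level in that library's remaining barcodes, and under 50% of the UMIs in 5 cells. Genes such as SPP1 and CCL17, which lie farther apart, were left out by these limits. The first 10 on the UAT side were GLDN, LPL, PDIA4, FN1, VCAN, CD36, HSPA5, APOC1, TCEAL1 and TIMP1. They include 2 ER folding genes (PDIA4, a disulfide isomerase, and HSPA5), 3 genes of lipid handling (LPL, a lipase of lipoproteins, CD36, a fatty acid receptor, and APOC1, an apolipoprotein) and 2 of the extracellular matrix (FN1, fibronectin, and VCAN, versican). GLDN, which encodes gliomedin, was 106 CPM in UAT against 3.66 in CST macrophages, giving a ratio of 29.1 (exact conditional binomial interval 8.01 to 241), and 18.3 without scored doublets. TIMP1, an inhibitor of matrix proteases, stood at 589 and 154 CPM, a ratio of 3.83 (2.03 without scored doublets), but the remaining UAT barcodes carried 2018 CPM of it and 5 members held 30.8% of its UAT UMIs.

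The genes of ER protein folding were higher in the UAT macrophages as a group. Of the 40 genes listed, 39 were in the files and 28 passed the 50 CPM floor; 18 of the 28 were at least 1.5-fold higher in UAT and 0 lower, with a median of 0.76 on the log2 scale against 0.14 for all genes. Without scored doublets it was 15 of 29 higher and 0 lower, with a median of 0.73 against 0.02. Among the chaperones, HSPA5 was 1093 CPM in UAT against 278 in CST macrophages, giving a ratio of 3.93 (3.35 to 4.65), and 1157 against 272 without scored doublets, a ratio of 4.26 (3.46 to 5.29). HSP90B1 (GRP94), the HSP90 of the ER, stood at 1516 and 540 CPM, a ratio of 2.81 (2.5 to 3.17), and 3.28 (2.81 to 3.86) without scored doublets. Both ratios were larger without the doublets, as were those of HYOU1 and SDF2L1 below. Those of PDIA4, PDIA6, P4HB, PDIA3, CALR, CANX, DNAJC3 and XBP1 were smaller.

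The disulfide isomerases and the glycoprotein lectins followed the same direction. PDIA4 was 335 CPM in UAT against 45.7 in CST macrophages, giving a ratio of 7.33 (4.95 to 11.4), and 358 against 62 without scored doublets, a ratio of 5.77 (3.76 to 9.35). PDIA6 had a ratio of 3.65 (2.68 without scored doublets), P4HB of 2.54 (2.27) and PDIA3 of 2.19 (2.07). The calcium-binding lectin chaperones CALR and CANX had ratios of 2.24 and 1.93 (1.99 and 1.69). The cofactors that work with BiP were also higher: HYOU1 at 83.2 and 21.9 CPM (ratio 3.79, and 5.79 without scored doublets), DNAJC3 at 208 and 82.3 (2.53, and 2.41), and SDF2L1 at 188 and 73.2 (2.57, and 3.6).

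The regulators of the response were less uniform than its chaperones. XBP1, the transcription factor spliced by IRE1, stood at 210 and 69.5 CPM, a ratio of 3.02 (2.4 without scored doublets). ATF4, the factor downstream of PERK, had a ratio of 1.73 in all members and 1.25 without scored doublets, and DDIT3 (CHOP), its target in prolonged stress, 1.04 and 1.44. ATF3 had 1.56 and 1.16. The sensors themselves were too low to compare, with 107 and 6 UMIs for ERN1 (IRE1) and 106 and 5 for EIF2AK3 (PERK). Without applying the 50 CPM floor again, 13 of the listed genes were past the fold upward in all members and under each of 15 other settings. They were HSPA5, HSP90B1, PDIA3, PDIA4, PDIA6, P4HB, SDF2L1, CALR, CANX, DNAJC3, HYOU1, XBP1 and SEL1L. Over all 3496 genes measured, 161 kept the fold upward in the same way and 390 downward. Settings that change only the floor, to 20 or 100 CPM, leave each ratio as it was and could not alter these counts.

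**Figure D2:**
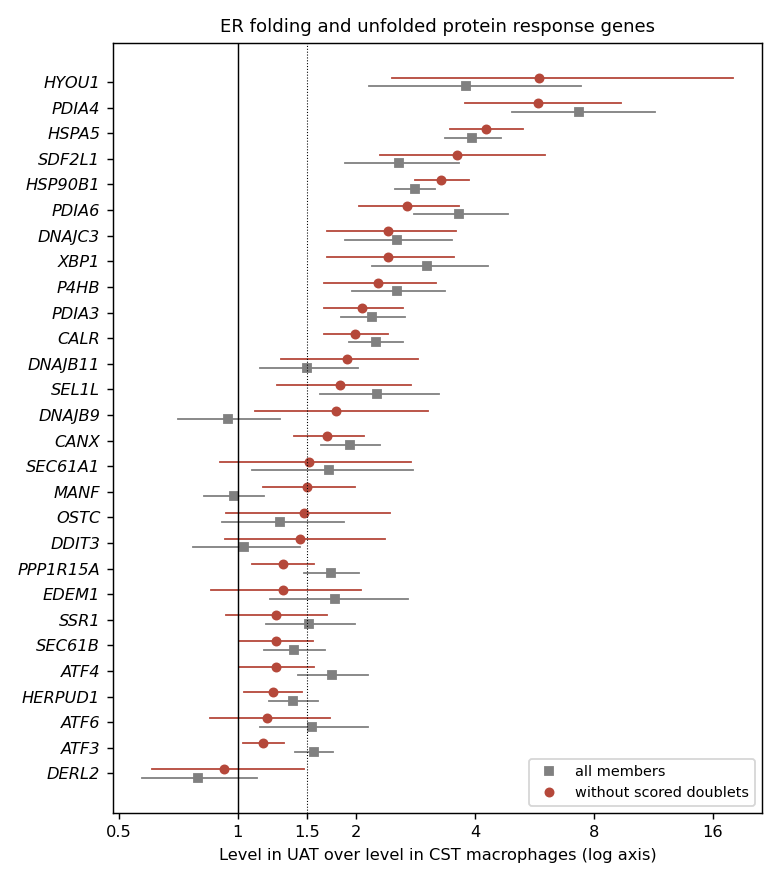
Each line is 1 ER folding gene past the 50 CPM floor, and the x axis (log scale) is the ratio of its CPM in UAT to that in CST macrophages. Grey squares are all members, red circles the members not scored as doublets, bars the exact 95% intervals for counting error, and the dotted line marks 1.5. HSPA5, HSP90B1 and PDIA4 lie to the right of the line with their whole bars in both sets.

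Single cells showed the same order of HSPA5 levels with wide overlap. In UAT members HSPA5 ran from 0 to 12651 CPM with a median of 673, and 80 of 614 had no UMI. In CST members it ran from 0 to 1361 CPM with a median of 157, and 46 of 97 had no UMI. The highest CST cell lay far under the highest UAT cells, while both libraries had cells at 0. Because depth differs, each cell was also thinned to 1000 UMIs, which left out 7 UAT and 0 CST members. HSPA5 was then seen in 52.6% of UAT macrophages (48.5 to 56.6) and 17.5% of CST macrophages (10.6 to 26.6), against 87.5% and 52.6% unthinned. The CST share was below that of CST stromal barcodes (30%) and near that of CST endothelial barcodes (22%), so it is not above what those cells carry.

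HSPA5 was also read in the other cells of the same 2 libraries, with scored doublets left in. Germ-cell marker RNA made up 4.57% of CST endothelial and 1.56% of CST stromal UMIs, and it counts in their CPM totals. The endothelial markers themselves summed to 4852 CPM in UAT and 2249 in CST endothelial barcodes, with per-cell medians of 5201 and 4675. Endothelial ratios of summed CPM, here and below, carry this limit. In endothelial barcodes the UAT level of HSPA5 was 428 CPM and the CST level 231, a ratio of 1.85 (1.74 to 1.97). In stromal barcodes its levels were 373 and 365, a ratio of 1.02 (0.99 to 1.06). In the S100A8/A9-high myeloid barcodes it stood at 1187 and 279, a ratio of 4.26 (2.15 to 9.91), from 7 CST cells. Those 7 cells held 28705 UMIs in all, with 8 UMIs of HSPA5, 14 of HSP90B1, 2 of PDIA6 and 0 of HYOU1. Myeloid list counts, here and below, therefore rest on few CST UMIs per gene. Over the ER folding list, 14 of 28 measured genes were past the fold upward and 5 downward in endothelium, where 36.4% and 27.5% of all genes were, with a median of 0.56 (all genes 0.31). In the myeloid barcodes it was 18 of 29 upward and 4 downward, where 19.9% and 35.1% of all genes were, with a median of 0.85 (all genes −0.27). In stroma it was 2 of 26 upward and 1 downward, where 5.8% and 12% of all genes were, with a median of 0.00 (all genes −0.02). The macrophage interval for HSPA5 lies above the endothelial and stromal intervals and within the myeloid one; with 1 library each, whether the cell types differ was not tested.

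Scavenger receptors of resident macrophages were higher in UAT in 8 of 12 measured genes and lower in 0, with a median of 0.98; without scored doublets it was 6 of 12, with a median of 0.60. CD163, which is on this list, is also a selection gene. MRC1, the mannose receptor, was 1121 CPM in UAT against 450 in CST macrophages, giving a ratio of 2.49 (2.19 to 2.84), and 1.93 without scored doublets. LYVE1, the hyaluronan receptor that marks perivascular macrophages, stood at 386 and 117, a ratio of 3.3 (2.57 to 4.31), and 2.36 (1.82 to 3.11) without scored doublets. After thinning, MRC1 was seen in 60.3% and 35.1% of cells and LYVE1 in 28.5% and 15.5%, while MRC1 was seen in under 1% of stromal barcodes (0.349% and 0.309%). LYVE1 was higher in UAT in endothelium too, with a ratio of 2.9 (2.57 to 3.27) from 161 and 55.7 CPM. After thinning it was seen in 13.3% and 7.92% of endothelial barcodes. In stroma LYVE1 lay under the floor, at 7.84 and 1.71 CPM (ratio 4.58, from 21 CST UMIs). C1QA, from 3.04 and 0.653 CPM, had a stromal ratio of 4.66, and the part of macrophage RNA in these values was not tested. MRC1, also under the floor, had ratios of 0.719 in endothelium and 0.721 in stroma. F13A1, the coagulation factor XIII A chain, had a ratio of 3.01 (2.5) and MSR1, scavenger receptor A, 2.11 (1.89).

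Other receptors of the same list did not keep the fold without scored doublets, or lay under the floor. FOLR2, a folate receptor of resident macrophages, stood at 395 and 315 CPM (ratio 1.26, and 0.942 without scored doublets) and was seen after thinning in 33.9% and 34% of cells. STAB1 had a ratio of 1.95 in all members and 1.39 without scored doublets, and VSIG4, the complement receptor of tissue macrophages, 1.67 and 1.33. The C-type lectin CD209 and the scavenger receptor MARCO lay under the floor in the mean of the libraries but far apart: CD209 had 352 UMIs in UAT and 3 in CST (77.9 and 5.49 CPM, ratio 14.2, 4.82 to 69.2) and MARCO 242 and 1 (53.6 and 1.83 CPM, ratio 29.3, 5.21 to 1161). TIMD4, a receptor for phosphatidylserine, had 12 UMIs in UAT and 44 in CST (2.66 and 80.5 CPM), where the remaining barcodes carried 453 CPM of it.

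Iron and haem genes stood in the same direction: 9 of 9 were past the fold upward in all members (median 1.10) and 6 of 9 without scored doublets (median 0.67). FTH1, the ferritin heavy chain, was 2513 CPM in UAT against 964 in CST macrophages, giving a ratio of 2.61, and 2.17 without scored doublets. HMOX1, which breaks down haem, stood at 158 and 73.2 (ratio 2.16, and 1.66 without scored doublets), and SLC40A1 (ferroportin), the iron exporter, at 188 and 78.6 (2.39, and 1.63). BLVRB, a reductase of biliverdin, had ratios of 2.74 and 1.8. FTL, the ferritin light chain, stood at 9870 and 6332 CPM and had 1.56 and 1.2. CD163 counts here too. Genes of the red cell itself were low, at 1.99 CPM in UAT and 12.8 in CST for the summed erythroid markers.

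Genes of lipid handling were higher in 11 of 18 measured members and lower in 1 (median 0.79), and in 6 of 17 and 0 without scored doublets (median 0.34). CD36 stood at 636 CPM in UAT, a ratio of 5.19 to CST (3.54 without scored doublets, from 659 and 186 CPM), and FABP5, a fatty acid carrier, at 1168 and 342 (3.42, and 2.47). LPL stood at 222 and 21.9, a ratio of 10.1 (5.76 to 19.6), and 6.78 without scored doublets. APOC1 stood at 606 and 150, a ratio of 4.04, and 2.83 without scored doublets. These last ratios rest on few cells, since 5 UAT members held 41.2% of the LPL and 30.8% of the APOC1 UMIs. APOE, the main apolipoprotein of macrophages, was at 5098 and 3027 CPM (ratio 1.68, and 1.26 without scored doublets), and TREM2, a lipid-sensing receptor, at 203 and 117 (1.73, and 1.24).

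Growth factors and matrix genes were past the fold upward in 9 of 16 and downward in 0 (median 0.90), and in 7 of 18 and 1 without scored doublets (median 0.36). FN1 was 798 CPM in UAT against 148 in CST macrophages, giving a ratio of 5.38 (4.32 to 6.8), and 4.84 without scored doublets. VCAN had ratios of 5.78 and 3.94, TGFBI, a matrix protein induced by TGF-beta, 3.12 and 2.23, and VEGFA, the vascular growth factor, 2.43 and 1.69. FN1 is also a stromal gene, and after thinning it was seen in 25.7% of UAT and 13.4% of CST macrophages against 21.1% and 29% of stromal barcodes. SPP1 (osteopontin) stood at 564 and 12.8 CPM (653 and 20.7 without scored doublets), with 78% of its UAT UMIs in 5 cells.

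Single genes of antigen presentation were lower in UAT once the scored doublets were set aside, while most of the list did not pass the fold. Over 8 MHC class II genes, 1 was past the fold upward and 0 downward in all members (median 0.23). Without scored doublets it was 0 upward and 2 downward (median −0.15), so the sign of the median depended on that choice. Of the list, 0 genes were past the fold downward under every setting, where 390 of all 3496 genes were. Mafa-DRA, the class II alpha chain, was 12694 CPM in UAT against 14503 in CST macrophages, giving a ratio of 0.875, and 13722 against 20304 without scored doublets, a ratio of 0.676 (0.659 to 0.693). Mafa-DMA, which helps load peptides, stood at 722 and 1048 (0.689), and at 777 and 1515 (0.513, 0.467 to 0.564) without scored doublets. Mafa-DMB had 0.744 and 0.541. Mafa-DMA and Mafa-DMB were the 2 that passed, and Mafa-DRA did not.

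Cell by cell the same order was seen, with overlap. The median member carried 11099 CPM of Mafa-DRA in UAT and 19880 in CST, and after thinning Mafa-DMA was seen in 47.1% of UAT and 69.1% of CST macrophages, against 0.873% and 0.221% of stromal barcodes. Summed endothelial Mafa-DRA had the opposite order, with 3639 CPM on the UAT side and 1529 on the CST side, for a ratio of 2.38. That CST total includes the germ-cell RNA given above. After thinning, Mafa-DRA was seen in 86.5% of UAT and 74.7% of CST endothelial barcodes, and Mafa-DMA in 36.1% and 37.1%. Stromal Mafa-DRA was also higher in UAT, at 153 and 42.2 CPM. Of the macrophage selection genes, C1QA had a stromal ratio of 4.66 and CSF1R of 0.827, and the part of macrophage RNA in stroma was not tested. The S100A8/A9-high myeloid barcodes, with 7 CST cells, had the macrophage order, with ratios of 0.78 for Mafa-DRA (0.679 to 0.899) and 0.574 for Mafa-DMA (0.338 to 1.05). Of 9 class II genes measured there, 1 was past the fold upward and 3 downward, where 19.9% and 35.1% of all genes were. Their median was −0.36 (all genes −0.27). CD74, the invariant chain, had a ratio of 1.14 in all macrophages and 0.843 without scored doublets. Of 7 class I genes, 1 was past the fold upward in all members and 1 downward without scored doublets (medians 0.22 and −0.14). PSMB9, an immunoproteasome subunit on that list, stood at 93.4 and 119 CPM, and at 88.9 and 183 without scored doublets.

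Interferon-induced genes gave 3 of 14 past the fold in each direction in all members (median 0.19), and 0 upward and 4 downward of 16 without scored doublets (median −0.31). IFI6 was 260 CPM in UAT against 567 in CST macrophages, and 5 CST cells held 51.3% of the latter; the ratio was 0.459, and 0.29 without scored doublets. After thinning it was seen in 16.3% of UAT and 37.1% of CST macrophages, and also in more CST than UAT barcodes of stroma (27.1% and 34.3%) and endothelium (33.2% and 47.7%). MX1 and MX2, which block viruses, stood at 39.8 and 89.6 CPM and at 35.2 and 78.6 (ratios of 0.315 and 0.308 without scored doublets). Over the whole interferon list endothelium and stroma differed from IFI6. In endothelium 12 of 21 genes were past the fold upward and 1 downward (36.4% and 27.5% of all genes), with a median of 0.72 (all genes 0.31). In stroma it was 3 of 9 and 0 (5.8% and 12% of all genes), with a median of 0.38 (all genes −0.02). In the myeloid barcodes it was 5 and 6 of 14, where 19.9% and 35.1% of all genes were. Their median was −0.38 (all genes −0.27). IFI27 ran the other way in all members, 188 and 54.9 CPM, with 52.1% of its UAT UMIs in 5 cells, and stood at 51.9 and 76.8 without scored doublets.

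The cytokines IL1B and TNF differed by less than 1.5-fold between the libraries, while several regulators on the inflammatory list were past the fold. Of 19 measured, 5 were past the fold upward and 0 downward (median 0.22), and of 21 without scored doublets 5 upward and 2 downward (median −0.18). IL1B was 584 CPM in UAT against 710 in CST macrophages and TNF was 397 against 335 (ratios of 0.692 and 0.884 without scored doublets); after thinning IL1B was seen in 22.9% and 25.8% of cells, TNF in 27.2% and 28.9% and the neutrophil chemokine CXCL8 in 51.9% and 52.6%. The members past the fold upward included SOCS3, an inhibitor of cytokine signalling, at 326 and 104 CPM (3.13, and 2.26 without scored doublets), and IL1R2, the decoy receptor of IL-1, at 187 and 96.9 (1.93, and 1.71). The EGFR ligands AREG and HBEGF had 2.29 and 1.51 without scored doublets. IL10, an anti-inflammatory cytokine, lay under the floor with 353 UMIs in UAT and 11 in CST (78.1 and 20.1 CPM).

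Chemokines and their receptors gave 5 of 12 upward and 1 downward (median 0.25), and 2 and 3 of 12 without scored doublets (median −0.18). Farthest apart was CCL17, a chemokine of dendritic cells, at 6.86 CPM in UAT and 530 in CST, of which 5 CST cells held 96.6% (6.2 and 851 CPM without scored doublets). Immediate early genes, the first to respond when a cell is stimulated, were past the fold upward in 16 of 22 and downward in 0 (median 0.72), and in 5 of 22 without scored doublets (median 0.35). FOS stood at 8718 and 4750 CPM (1.84, and 1.35 without scored doublets) and EGR1 at 1556 and 572 (2.72, and 1.99). The same list was past the fold upward in 21 of 21 endothelial genes, against 36.4% of all endothelial genes, and in 7 of 19 stromal genes, against 5.8%, with 0 downward in both. In the S100A8/A9-high myeloid barcodes it was 6 upward and 3 downward of 21, with a median of −0.09.

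Of 24 cytosolic heat shock genes, 5 were past the fold upward and 4 downward (median 0.01), not above the 22.1% and 23.5% of all genes. Without scored doublets it was 5 of 19 and 0 (median 0.28), where 9.6% and 8.76% of all genes were. HSP90AB1, the constitutive cytosolic HSP90, stood at 1311 and 483 CPM, a ratio of 2.71 (2.46 without scored doublets), and HSPA8, the constitutive HSP70, at 932 and 393 (2.37, and 1.71). The heat-inducible HSP90AA1 stood at 1860 and 1825, a ratio of 1.02 (1.43). HSP90AB1 had ratios of 2.6 in endothelium and 2.22 in stroma too. Of 3 cold-inducible genes 0 were past the fold in all members and 1 lay downward without scored doublets (medians −0.43 and −0.47). The cold-inducible RNA-binding protein genes RBM3 and CIRBP stood at 279 and 380 CPM and at 218 and 307, ratios of 0.734 and 0.711 (0.522 and 0.71). After thinning RBM3 was seen in 23.2% and 37.1% of macrophages, against 10.6% and 33.8% of stromal barcodes.

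Complement components gave 2 of 5 upward in all members and 0 of 5 without scored doublets (medians 0.53 and 0.16), and C1QA, C1QB and C1QC are among them. Complement receptors and regulators gave 9 of 11 and 4 of 12 (medians 0.82 and 0.42), among them CD55, a brake on complement, at 146 and 34.8 CPM (ratio 4.19, and 3.05 without scored doublets), and the C5a receptor C5AR1 at 634 and 304 (2.09, and 1.6). Phagocytosis genes gave 11 of 18 and 3 of 18 (0.61 and 0.29), with the uptake receptor MERTK at 98.5 and 32.9 CPM (ratio 2.99, and 2.04 without scored doublets). Its ligand GAS6 stood at 281 and 157 CPM (1.79), and at 290 and 224 without scored doublets, where its ratio of 1.29 was under the fold. Lysosome genes gave 12 of 29 upward and 1 downward, and 5 and 0 without scored doublets (0.55 and 0.14). Without scored doublets, of these 4 lists the complement receptors, which share CALR with the ER list, had the largest share past the fold, read against the background of 9.6%.

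Transcription factors of macrophages gave 12 of 18 upward and 0 downward (median 0.85), and 5 and 1 of 19 without scored doublets (0.39). ZEB2, which keeps tissue macrophage identity, stood at 699 and 269 CPM (2.6, and 1.87), and MITF, a factor of lysosome genes, at 103 and 23.8 (4.33, and 3.69). Antioxidant genes gave 5 of 13 upward and 1 downward (3 and 0 of 13 without scored doublets), glycolysis genes 6 and 1 of 12 (3 and 0 of 13) and p53 targets 5 and 1 of 11 (2 and 0 of 10). Cell cycle genes gave 1 of 7 upward and 4 downward (median −2.19), and the sign turned to 0.34 after thinning each cell to 1000 UMIs. The colony stimulating factor axis gave 1 of 3 upward and 0 of 3 without scored doublets. CSF1R, a selection gene, stood at 1207 and 739 CPM, a ratio of 1.63, and 1.21 without scored doublets. Its ligand genes were read mostly outside the macrophages: stromal barcodes held 112 and 104 CPM of CSF1 and 30.3 and 35.5 of IL34.

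**Figure D3:**
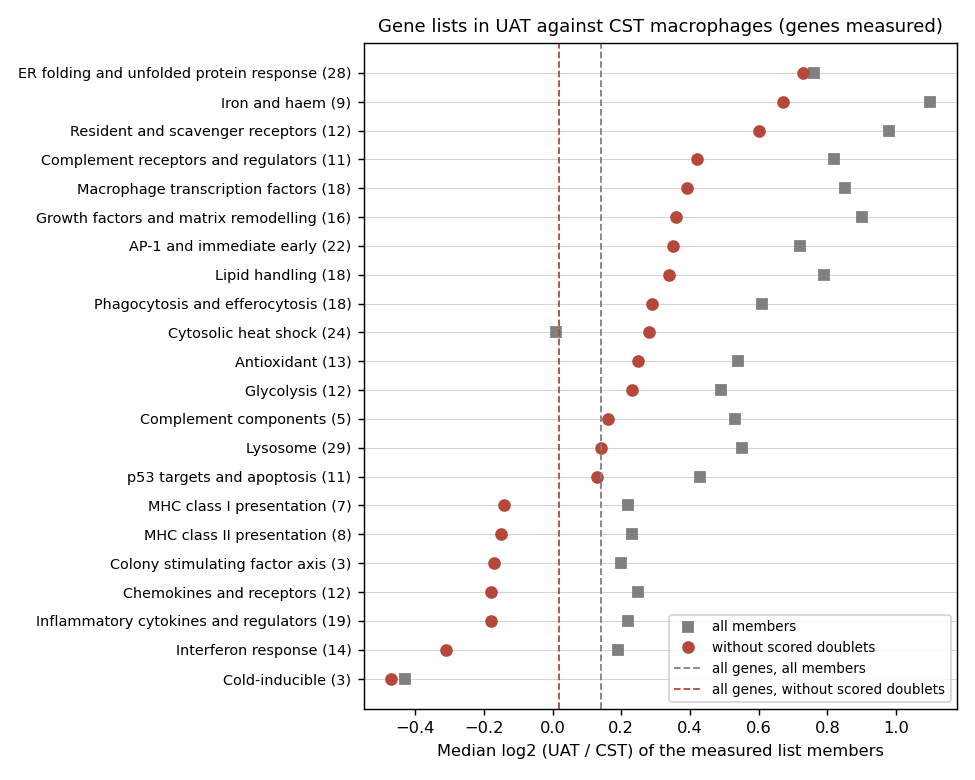
Each line is 1 gene list, and the x axis is the median over its measured genes of the log2 ratio of UAT to CST macrophages. Grey squares are all members, red circles the members not scored as doublets, and dashed lines the medians over all genes, 0.14 and 0.02. ER folding stays at 0.76 and 0.73, while most other lists lie closer to the all-gene line without the scored doublets.

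By the same ranking and limits, the first 10 genes on the CST side were SPCS1, LSM4, TADA3, SCAND1, NDUFV1, PDCD10, FAM177A1, RAB4A, DR1 and GUK1. Their ratios lay between 0.4 and 0.453 in all members and between 0.433 and 0.606 without scored doublets. SPCS1, a subunit of the signal peptidase, was 145 CPM in UAT against 348 in CST macrophages. For each of the 10, 5 cells held between 40.7% and 49.5% of the CST UMIs. All 10 also stood higher in the remaining CST barcodes (115 to 706 CPM) than in the remaining UAT barcodes (55.7 to 211 CPM), so the members and the cells around them had the same direction.

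The 711 members fell into 8 subsets by graph clustering, and the genes below describe the subsets without any test, since the same genes made them. The leading genes were named after their values were seen. The largest, with 181 UAT cells (29.5% of UAT members) and 0 CST cells, was led by CD209, PDIA4, DERL3, IL1R2 and SDF2L1. It carried 2292 CPM of MRC1, 4387 of CD163, 2046 of HSPA5 and 826 of PDIA4. A set of 135 UAT cells was led by inflammatory and early genes, with 1053 CPM of TNF, 6067 of CXCL8 and 3559 of EGR1. A set of 128 UAT cells and 1 CST cell had 692 CPM of GPR183, 163 of CX3CR1 and 19601 of Mafa-DRA, with 571 of MRC1.

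A smaller set of 81 UAT cells and 1 CST cell carried 669 CPM of the chemokine CCL13, 1548 of FOLR2, 1305 of LYVE1 and 693 of IGF1, and had the lowest Mafa-DRA named here at 4654 CPM. The 45 UAT and 2 CST cells of the lipid-handling set had 3714 CPM of SPP1, 1464 of GPNMB, 4730 of FABP5 and 992 of LPL, at a median depth of 12862 UMIs. The last 2 sets, of 23 UAT with 1 CST cell and 21 UAT with 2 CST cells, carried mural, Leydig or endothelial genes and were mostly scored doublets. CST members made a set of their own: 90 of 97 (92.8%) lay together, apart from every UAT cell, led by PRM1, PRM2 and TNP1, which are spermatid genes. In these clusters the library and the cell state cannot be told apart.

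The levels in CST members are given instead. CST members not scored as doublets carried 632 CPM of MRC1, 20304 of Mafa-DRA, 337 of GPR183, 121 of CX3CR1, 499 of TNF, 458 of FOLR2, 174 of LYVE1 and 20.7 of SPP1. HSPA5 was above the CST value of 272 CPM in each of the 7 UAT subsets, from 607 to 2046 CPM. Its per-cell median was 1116 CPM in the CD209 set and 310 in the FOLR2 set, the lowest of the 7, against 70.2 in the CST set. Subset number depended on the resolution: a lower one gave 6 sets and kept 77.5% of the cell pairs together, and a higher one gave 12 and kept 48.5%.

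**Figure D4:**
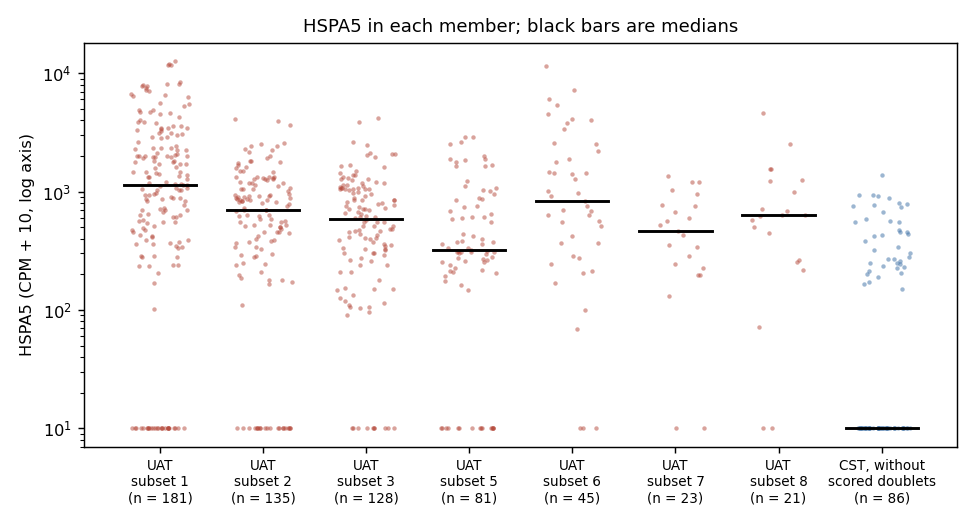
Each point is 1 member, its y value is HSPA5 in CPM plus 10 on a log scale, and the columns are the 7 UAT subsets and the CST members not scored as doublets. Black bars are medians. The bar of every UAT subset lies above that of the CST members, which is at 0 and drawn at 10, while cells with no HSPA5 UMI occur in both libraries.

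**Figure D5:**
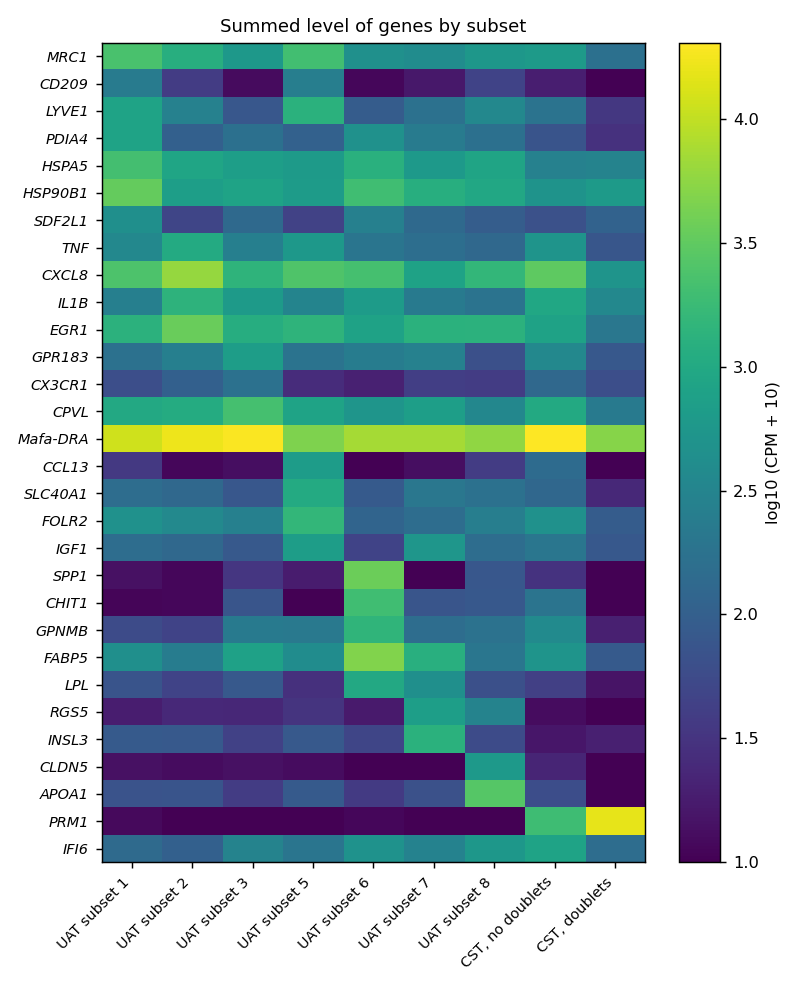
The colour is log10 of CPM plus 10 for 30 genes (lines) in the 7 UAT subsets, the CST members not scored as doublets and the CST members scored as doublets (columns). PDIA4, HSPA5 and MRC1 are brightest in the set of 181 cells, and SPP1 in the set of 45. The CST column without scored doublets has 20304 CPM of Mafa-DRA and 20.7 of SPP1.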

How the data were processed

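The deposited matrices hold raw UMI counts per gene and barcode, made by the authors with Cell Ranger; the file headers name version 5.0.0 and the submitters' processing notes 3.0.1 with a mouse build, so no coordinates are used. Gene symbols come from the files, with 727 unnamed features renamed through the RefSeq gene table. Counts of the members were summed per library and scaled to CPM, with ratios, exact conditional binomial 95% intervals and a 10 CPM pseudocount for the 1.5-fold rule; there was 1 library per position and so no test, and UMI intervals cover counting error only. Doublets were scored per library by the share of simulated doublets among 50 neighbours on 30 components and taken as 0.8% per 1000 barcodes. Free RNA was estimated from genes macrophages lack, at 5.77% of member UMIs in UAT and 17.1% in CST. Scored doublets were included, so RNA of paired cells counts toward these values. Spermatid markers, the genes used for CST, stood at 17980 CPM in CST members and 5295 without scored doublets. The estimates therefore do not measure a difference in free RNA between the libraries. Subsets came from Leiden clustering (leidenalg 0.10.2, resolution 0.5, 1500 genes, 20 components) in scanpy 1.11.5 with numpy 2.4.6 and scipy 1.17.1. Interval code was checked on simulated data. Named genes were the selection genes, 10 genes at either end when ranked on whichever limit of the ratio was closer to 1, among genes with a symbol, at least 100 CPM and 30 UMIs, at least 25% of the level in the remaining barcodes and under 50% of UMIs from 5 cells, and list members with a mean of at least 50 CPM. The members, lists and rules were chosen with earlier results of these data known. The alternatives were other cell filters, scalings, floors, pseudocounts, thinning and removal of doublets or free RNA.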

Additional observations from a re-analysis of the deposited data

How the results depend on the processing

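The share of macrophages in UAT was 4.97% and became 4.53% when C1Q had to reach 30 per 10,000 UMIs; in CST 0.647% became 0.507% under that rule, 0.79% with at least 1000 genes and 1.59% over somatic barcodes, of which only 378 were left in CST. Genes at least 1.5-fold higher in UAT numbered 771, and 486 by the mean over cells, 362 with C1Q of at least 30, 307 with scored doublets removed, 439 without the 5 deepest cells of each library, 424 with a pseudocount of 50 CPM, 1381 and 392 with floors of 20 and 100 CPM, 323 with median scaling and 438 with doublets removed and the mean over cells, an alternative chosen after seeing the data. Genes lower numbered 822, and in turn 407, 295, 280 and 345 under the first 4 of these, 1744 and 336 with floors of 20 and 100 CPM and 332 under the last. The median of the cell cycle list went from −2.19 to 0.34 after thinning. ER folding genes past the fold upward stayed between 12 (median scaling, of 26 measured) and 22 over 15 alternatives, against 18; the floor was applied again in these counts, and not for the 13 genes that kept the fold throughout. Among 44 genes followed through these settings, 0 of those past the fold in all members changed direction. The floors of 20 and 100 CPM cannot change the ratio of a single gene, so they are no check here. HSPA5 ranged from 1.67 to 2.57 on the log2 scale and MRC1 from 0.82 to 1.34. FOS (0.36 to 0.91) and CSF1R (0.18 to 0.73) crossed the fold. Under the fold, TYROBP (−0.22 to 0.23), FCER1G (−0.19 to 0.3) and AIF1 (−0.25 to 0.19) changed sign. IFI27, which changed direction without scored doublets, was not among the 44. With C1Q of at least 30, 8 of the 44 no longer passed the fold, and 6 with doublets removed. Leaving out cells with 3 or more spermatid or stromal markers left 0 CST members and gave no value. The causes of these differences were not tested. No paired analysis was possible because each position had 1 library. Limits are the 97 CST members, their germ-cell RNA and the lack of replicates.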

Other observations

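A few UAT members were rich in 1 unnamed feature. This feature, LOC102133296, stood at 9138 CPM in UAT members and 3.66 in CST members, and 3 UAT members held 98.3% of its UMIs. Those 3 were deep (44104, 42026 and 25669 UMIs), carried 25, 41 and 8 UMIs of MZB1, a chaperone of antibody-secreting cells, and were not scored as doublets. Because MZB1 and XBP1 belong to secretory cells, the ER values were computed again without the 3, an alternative chosen after seeing the data. HSPA5 was then 1109 CPM in UAT in place of 1093, HSP90B1 1530 in place of 1516, PDIA4 338 in place of 335 and XBP1 204 in place of 210, while MZB1 went from 19.5 to 3.18.

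The growth factor CSF1 had 101 UMIs in UAT macrophages and 1 in CST macrophages. These are 22.4 and 1.83 CPM, a ratio of 12.2 (2.14 to 488), while endothelial barcodes held 41 and 19.8 CPM of it. In the lipid-handling set CSF1 stood at 107 CPM, against 6.41 in the other members. CCL17 was seen after thinning in 6.19% of CST and 0.824% of UAT macrophages.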
